A study of Homo sapiens with 12 samples.

Results

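Expression of 10 genes of glutathione synthesis, cystine uptake and glutathione turnover was followed in human liver spheroid co-cultures exposed to total parenteral nutrition (TPN). The genes were the rows of the deposited expression table with the symbols GCLC, GCLM, GSS, SLC7A11, SLC3A2, GPX2, GSR, CHAC1, GGT5 and OPLAH, which is 10 of 16705 genes. The spheroids combined HepG2/C3A cells, a clonal hepatocyte-like line from a human liver tumor, with LX-2 cells, an immortalized human hepatic stellate cell line. RNA sequencing covered 12 libraries, 3 of untreated and 3 of exposed spheroids after 24 h and again after 144 h, in groups named by treatment and time (such as TPN 24 h). Exposed spheroids received 1% TPN in culture medium, a clinical mixture of amino acids with electrolytes, glucose, a lipid emulsion, trace elements and vitamins, and untreated spheroids of the same age received none. All groups shared the cell lines and the culture medium with serum, and each value is an average over both cell types.

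Glutathione (GSH) is a tripeptide of glutamate, cysteine and glycine and the main low-molecular-weight thiol of hepatocytes, where it serves peroxide removal and conjugation of xenobiotics. Its synthesis is limited by glutamate-cysteine ligase and by the supply of cysteine, much of which enters cultured cells as cystine through the exchanger called system xc-. Several of these genes carry antioxidant response elements bound by the transcription factor NRF2, while cystine uptake and CHAC1 also belong to the amino acid response driven by ATF4.

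Values are FPKM, fragments scaled to transcript length and library size, as deposited, so levels of different genes can be set side by side. Sums of FPKM per library lay between 561657 and 583722, and libraries of one group correlated at Pearson's r of 0.9934 to 0.996 across genes. Depth was not given with the values, and the steps between low values pointed to about 1.65e+07 fragments per library. Hepatocyte markers (ALB, APOA1, TTR and others) summed to between 10317 and 14225 FPKM per library, and stellate cell markers (COL1A1, VIM, ACTA2 and others) to between 70.5 and 145.8 FPKM. CYP7A1 averaged at most 0.02 FPKM in any group, and the stellate markers DES, LUM and PDGFRA at most 0.06 FPKM, so these 4 markers were at or near 0. In bulk samples, fewer cells of a type and less RNA per cell cannot be told apart.

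Genes were tested with limma on log2(FPKM + 0.1), with p values adjusted over 11713 genes. A gene passed the test at an adjusted p below 0.05 and is called a differentially expressed gene (DEG) when its absolute log2 fold change was also above 0.58. All 10 genes met the filter on low values (a mean of at least 0.5 FPKM over the 12 libraries), and every log2 fold change below is on the log2(FPKM + 0.1) scale, which understates changes of low genes.

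After 24 h of TPN, 6 of the 10 genes passed the test, all higher, beside 5.04% of all genes tested that passed as higher and 5.46% as lower. The 3 DEGs were both glutamate-cysteine ligase subunits (GCLC, GCLM) and the cystine carrier (SLC7A11), beside 0.64% of all genes called as higher and 0.273% as lower DEGs. After 144 h, all 10 genes passed, 8 higher and 2 lower, beside 24.2% of all genes higher and 28.3% lower, so that passing alone was common at this time. Of the 10 genes, 9 were DEGs at 144 h, 8 higher and 1 lower, beside 5.75% of all genes as higher and 3.73% as lower DEGs. The median log2 fold change of the 10 genes was 0.21 at 24 h and 0.90 at 144 h, and that of all genes was -0.0045 and -0.018. Exposed and untreated values did not overlap for 6 genes at 24 h, all higher, and for all 10 at 144 h (8 higher, 2 lower), where 13.9% of all genes were higher and 15.9% lower without overlap at 24 h, and 27.2% and 30.2% at 144 h.

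**Figure D1:**
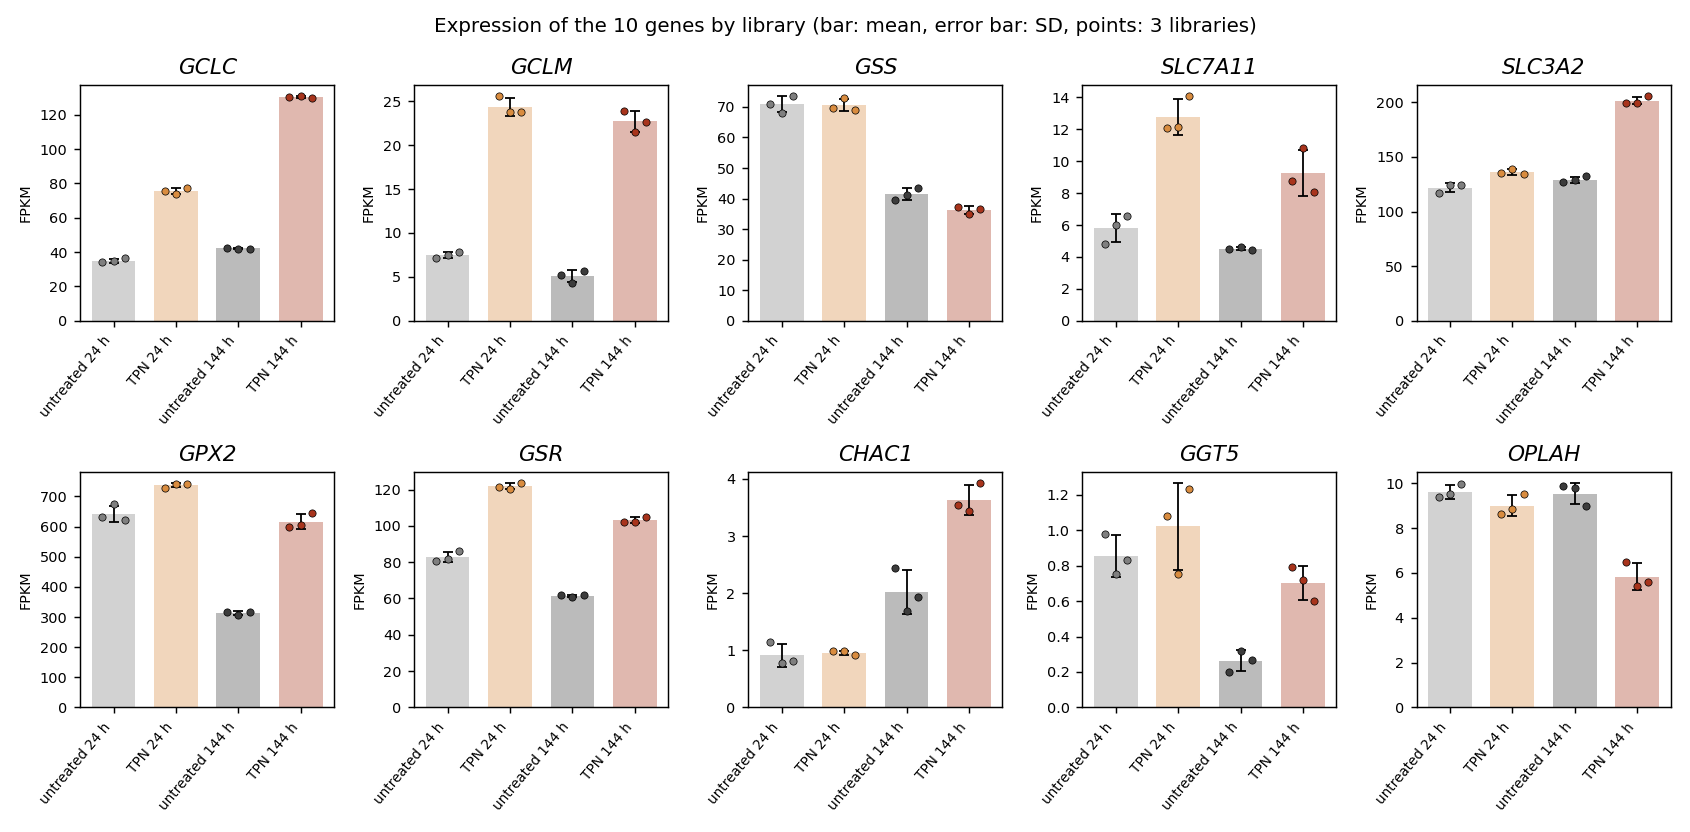
FPKM of the 10 genes (y axes, linear, from 0, a scale of its own for each gene) in the 4 groups (x axes). Points are the 3 libraries of a group, bars their mean and error bars the SD. Both ligase subunits and SLC7A11 lie higher with TPN at both times. GPX2 and SLC3A2 do too, by more at 144 h, and CHAC1 separates at 144 h alone. OPLAH is lowest in TPN 144 h at 5.84 FPKM.

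Glutamate-cysteine ligase joins glutamate and cysteine in the first step of synthesis, and GCLC is its catalytic subunit (gene 2729, chr6:53497341-53545101 in GRCh38.p13). GCLC stood at 34.14, 34.64 and 36.29 FPKM in the untreated 24 h libraries and at 75.59, 73.92 and 77.45 FPKM in TPN 24 h. At 144 h, GCLC stood at 42.61, 41.87 and 42.05 FPKM untreated and at 130.4, 130.74 and 129.89 FPKM with TPN. The 4 groups did not overlap, and their order from low to high was untreated 24 h, then untreated 144 h, then TPN 24 h, then TPN 144 h. The ratio of the means was 2.16 at 24 h and 3.09 at 144 h. GCLC thus rose by 1.11 ± 0.030 (log2, SE, n = 3 per group, limma adjusted p = 3.63e-11) at 24 h and by 1.63 ± 0.030 (limma adjusted p = 2.43e-13) at 144 h. Tested as an interaction, the change at 144 h exceeded that at 24 h by 0.52 (limma adjusted p = 2.43e-06).

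GCLM encodes the modifier subunit, which lowers the enzyme's need for glutamate and its inhibition by GSH (gene 2730, chr1:93885199-93962469). GCLM stood at 7.14, 7.53 and 7.83 FPKM untreated and at 25.58, 23.74 and 23.78 FPKM with TPN at 24 h. Later, at 144 h, GCLM stood at 5.26, 4.35 and 5.65 FPKM untreated and 23.92, 21.53 and 22.65 FPKM with TPN. The exposed libraries of both times overlapped with each other and lay far above all untreated ones, of which those of 144 h were the lowest. The ratio of the means was 3.25 at 24 h and 4.46 at 144 h. GCLM rose by 1.69 ± 0.079 (log2, SE, n = 3 per group, limma adjusted p = 9.94e-09) at 24 h, rank 10 of 11713 genes by absolute size, and by 2.14 ± 0.079 (limma adjusted p = 1.44e-10) at 144 h, rank 34. The 2 changes differed by 0.46 (limma adjusted p = 0.00747), while the exposed levels were 24.4 ± 1.05 and 22.7 ± 1.2 FPKM (SD, n = 3).

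Per FPKM, the modifier subunit was the scarcer of the pair in every library. The GCLM to GCLC ratio was 0.209, 0.217 and 0.216 in untreated 24 h libraries and 0.338, 0.321 and 0.307 in TPN 24 h libraries. At 144 h, the ratio was 0.123, 0.104 and 0.134 untreated and 0.183, 0.165 and 0.174 with TPN. Exposed libraries had the higher ratio at both times without overlap, and both groups of 24 h lay above both groups of 144 h. The log2 difference in the ratio was 0.59 at 24 h and 0.54 at 144 h, each with p = 0.1 in a two-sided exact permutation test, the smallest p that 3 against 3 libraries allow (20 arrangements). Leaving out untreated 144 h library 2 lowered the 144 h difference to 0.43.

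Glutathione synthetase, GSS, adds glycine in the second step (gene 2937, chr20:34928432-34956027). GSS ranged from 68.16 to 73.43 FPKM untreated and from 68.98 to 72.84 FPKM with TPN at 24 h, so the groups overlapped. Its log2 fold change at 24 h was -0.0067 (95% confidence interval -0.096 to 0.083, limma adjusted p = 0.948). At 144 h, GSS was at 39.57, 41.22 and 43.51 FPKM untreated and at 37.19, 34.84 and 36.67 FPKM with TPN, which did not overlap. It fell by 0.19 on the log2 scale at 144 h (SE 0.042, limma adjusted p = 0.00154), the opposite direction to both ligase subunits. The difference between the times was -0.19 (limma adjusted p = 0.0291), and it no longer passed without the intensity trend (adjusted p = 0.0566), without replicate 2 of untreated 24 h, TPN 24 h or TPN 144 h, or without replicate 3 of untreated 144 h (adjusted p from 0.0695 to 0.073).

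System xc- takes up cystine in exchange for glutamate. SLC7A11 is its light chain, also called xCT, which carries the substrates (gene 23657, chr4:138164097-138243126). SLC7A11 stood at 4.84, 5.99 and 6.55 FPKM untreated and at 12.1, 12.16 and 14.08 FPKM with TPN at 24 h. At 144 h, the values were 4.5, 4.61 and 4.41 FPKM untreated and 8.77, 10.86 and 8.09 FPKM with TPN. No groups overlapped, and TPN 24 h was the highest. The ratio of the means was 2.21 at 24 h and 2.05 at 144 h. On the log2 scale, SLC7A11 rose by 1.14 ± 0.11 (SE, n = 3 per group, limma adjusted p = 1.89e-05) at 24 h and by 1.01 ± 0.11 (limma adjusted p = 5.96e-06) at 144 h. SLC7A11 was the 1 gene of the 10 without a called difference between the times, at -0.13 (95% confidence interval -0.47 to 0.22, limma adjusted p = 0.588).

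SLC3A2, or CD98hc, is the heavy chain that brings SLC7A11 and several other amino acid carriers to the membrane (gene 6520, chr11:62856109-62888860). SLC3A2 stood at 117.11, 124.08 and 124.05 FPKM untreated and at 134.95, 139.19 and 134.56 FPKM with TPN at 24 h. Its values at 144 h were 126.72, 128.47 and 132.31 FPKM untreated and 199.68, 199.53 and 205.7 FPKM with TPN. The exposed libraries lay above the untreated ones at each time, by a ratio of the means of 1.12 at 24 h and 1.56 at 144 h. SLC3A2 rose by 0.16 (log2, SE 0.030, limma adjusted p = 0.0033) at 24 h and by 0.64 (limma adjusted p = 1.47e-09) at 144 h, and the difference between them was 0.48 (limma adjusted p = 4.77e-06).

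In all libraries, SLC7A11 stood far below its heavy chain partner. The SLC7A11 to SLC3A2 ratio averaged 0.0475 ± 0.00578 untreated and 0.0939 ± 0.00938 with TPN at 24 h, and 0.0349 ± 0.00138 untreated and 0.0459 ± 0.00774 with TPN at 144 h (SD, n = 3). The exposed libraries were higher at both times without overlap, and TPN 24 h libraries had the highest ratio. The log2 difference in the ratio was 0.99 at 24 h and 0.38 at 144 h, each with p = 0.1 in the two-sided exact permutation test, the smallest possible. The 144 h difference rested in part on TPN library 2, without which it was 0.25.

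**Figure D2:**
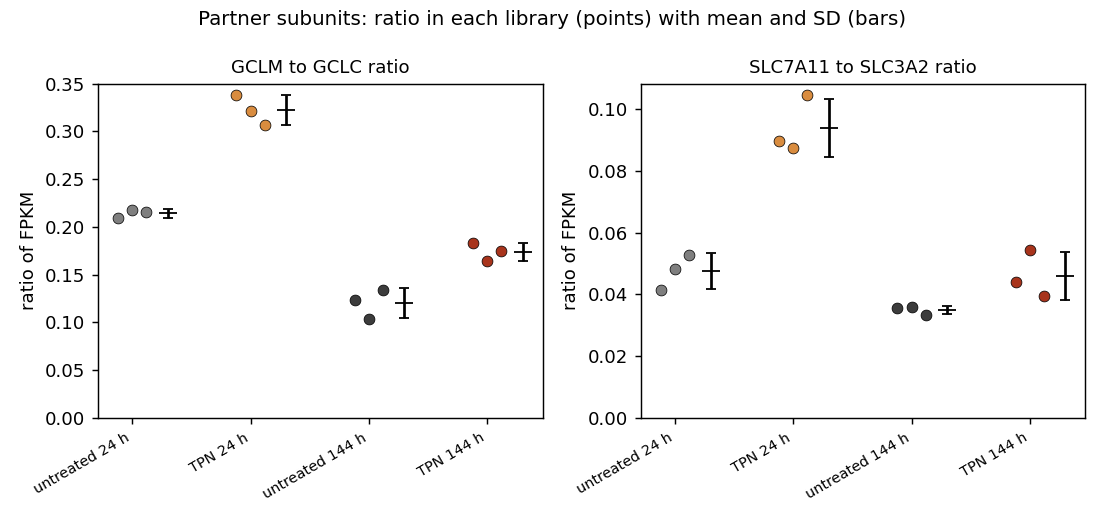
Ratio of the FPKM of partner subunits in each library (y axes, linear, from 0) by group (x axes). Points are libraries, and the bars beside them give mean and SD. Both ratios were higher with TPN at both times, and TPN 24 h libraries were the highest at 0.322 for GCLM to GCLC and 0.0939 for SLC7A11 to SLC3A2.

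GPX2 is a selenium-dependent GSH peroxidase, which reduces hydroperoxides at the expense of GSH (gene 2877, chr14:64939158-64942745). It was the most abundant of the 10 genes per FPKM, at 632.24, 673.58 and 620.73 FPKM in untreated 24 h and 728.91, 741.8 and 741.8 FPKM in TPN 24 h. The 144 h libraries had 315.37, 305.3 and 316.62 FPKM untreated and 599.2, 604.3 and 645.82 FPKM with TPN. Exposed and untreated libraries did not overlap at either time, and the range of TPN 144 h overlapped that of untreated 24 h. GPX2 rose by 0.20 (log2, SE 0.035, limma adjusted p = 0.00224) at 24 h and by 0.98 (limma adjusted p = 1.28e-10) at 144 h. The difference between the times was 0.78 (limma adjusted p = 2.89e-07). Untreated GPX2 was lower at 144 h than at 24 h by 1.04 on the log2 scale, so the 144 h comparison started from a level of 312.4 ± 6.21 FPKM against 642.2 ± 27.8 FPKM at 24 h (SD, n = 3).

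GSR, glutathione reductase, regenerates GSH from its oxidized form with NADPH (gene 2936, chr8:30676451-30727846). GSR stood at 80.56, 81.86 and 86 FPKM untreated and at 121.65, 120.42 and 123.63 FPKM with TPN at 24 h. GSR values at 144 h were 61.76, 60.86 and 61.67 FPKM untreated and 102.35, 102.2 and 104.94 FPKM with TPN. The 4 groups did not overlap, and both exposed groups lay above both untreated groups. GSR had a log2 fold change of 0.56 (SE 0.029, limma adjusted p = 2.51e-08) at 24 h, just under the DEG threshold, and 0.75 (limma adjusted p = 2.15e-10) at 144 h. The difference of 0.19 between them passed (limma adjusted p = 0.00325).

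The enzymes of GSH breakdown and recycling differed in direction. CHAC1 is a gamma-glutamylcyclotransferase that cleaves GSH inside the cell (gene 79094, chr15:40942076-40956518). CHAC1 was low, at 1.14, 0.77 and 0.82 FPKM untreated and 0.98, 0.98 and 0.91 FPKM with TPN at 24 h, where the groups overlapped. At 144 h, the values were 2.44, 1.68 and 1.94 FPKM untreated and 3.54, 3.43 and 3.93 FPKM with TPN, without overlap. CHAC1 had a log2 fold change of 0.08 at 24 h (95% confidence interval -0.24 to 0.40, limma adjusted p = 0.805) and 0.83 at 144 h (SE 0.15, limma adjusted p = 0.000354), and the difference between them was 0.75 (limma adjusted p = 0.0159). On an assumed transcript of 2000 bases, the group means correspond to about 26.8, 28.2, 59.6 and 107.2 fragments per library in the groups in the order just given.

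GGT5 encodes a gamma-glutamyl transferase of the cell surface, from a gene family whose members share sequence (gene 2687, chr22:24211777-24245142). Over the 12 libraries it had the lowest mean of the 10 genes, at 0.98, 0.75 and 0.83 FPKM untreated and 1.08, 0.75 and 1.23 FPKM with TPN at 24 h. At 144 h, the values were 0.2, 0.32 and 0.27 FPKM untreated and 0.79, 0.72 and 0.6 FPKM with TPN. The untreated 144 h libraries stood alone at the bottom, and the other groups formed a chain of overlapping ranges. For GGT5, the log2 fold change was 0.21 at 24 h (95% confidence interval -0.21 to 0.64, limma adjusted p = 0.565) and 1.15 at 144 h (SE 0.20, limma adjusted p = 0.000253). The latter was 0.43 with a pseudocount of 1 and 1.4 with a pseudocount of 0.01, and untreated 144 h libraries held about 7.77 fragments of it on an assumed transcript of 2000 bases. The difference between the times, 0.94 (limma adjusted p = 0.0214), no longer passed with a pseudocount of 1 (0.31, adjusted p = 0.0816) or without untreated 24 h library 1 (0.84, adjusted p = 0.0546), TPN 24 h library 2 (0.75, adjusted p = 0.0522) or TPN 144 h library 1 (0.86, adjusted p = 0.0506).

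Stellate cell markers moved with time in the untreated spheroids as GGT5 did. Of 12 listed markers 9 were tested, and 8 fell from 24 to 144 h in untreated spheroids with a median log2 fold change of -2.11, beside 52.4% of all genes lower and a median of -0.18. Their summed level ranged from 137.9 to 145.8 FPKM in untreated 24 h, from 122.7 to 125.9 FPKM in TPN 24 h, from 75.8 to 80.7 FPKM in untreated 144 h and from 70.5 to 73 FPKM in TPN 144 h. With TPN at 24 h, 1 of the 9 tested markers was lower, beside 5.46% of all genes, and 8 did not pass. It was ACTA2, at 57.8 FPKM untreated and 47.3 FPKM with TPN, while COL1A1 averaged 15.11 and 15.05 FPKM. Most of the 144 h sum was ACTA2 (47.9 FPKM untreated, 45.4 FPKM with TPN) and SPARC (20.8 and 21.7 FPKM), and neither passed with TPN. With TPN at 144 h, 5 of the 9 were lower and none higher (COL1A1, COL1A2, COL3A1, PDGFRB and VIM), beside 28.3% of all genes lower, with COL1A1 at 0.747 against 1.92 FPKM, whereas GGT5 was higher. The part of the cell mixture in the GGT5 values was not tested.

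OPLAH, or 5-oxoprolinase, returns 5-oxoproline from the breakdown of gamma-glutamyl compounds to glutamate (gene 26873, chr8:144051266-144064026). OPLAH stood at 9.37, 9.53 and 9.95 FPKM untreated and at 8.63, 8.87 and 9.53 FPKM with TPN at 24 h. Its 144 h values were 9.86, 9.77 and 8.99 FPKM untreated and 6.51, 5.4 and 5.6 FPKM with TPN. The first 3 groups overlapped, and TPN 144 h lay below all of them. OPLAH had a log2 fold change of -0.094 at 24 h (95% confidence interval -0.24 to 0.054, limma adjusted p = 0.453) and -0.70 at 144 h (SE 0.069, limma adjusted p = 1.62e-06), and the difference between the times was -0.61 (limma adjusted p = 0.000423). OPLAH was the 1 DEG of the 10 genes that fell.

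Tested across the 10 genes, the effect of TPN at 144 h exceeded that at 24 h for 7 genes and lay below it for 2 (GSS and OPLAH), beside 14.1% and 16.3% of all genes. Of these, GPX2, CHAC1 and GGT5 were past the fold threshold as higher and OPLAH as lower, beside 4.2% and 1.66% of all genes. A larger change did not always go with a higher exposed level. With TPN, GCLM averaged 24.4 and 22.7 FPKM at 24 h and 144 h, and GSR 121.9 and 103.2 FPKM. GPX2 averaged 737.5 and 616.4 FPKM, and GGT5 1.02 and 0.703 FPKM. Untreated means of these genes were also lower at 144 h. GCLC, SLC3A2 and CHAC1 averaged higher at 144 h both with TPN and untreated. Exposed groups were not tested against each other. The 3 comparisons that involve untreated 144 h libraries share them, so their values are not independent.

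**Figure D3:**
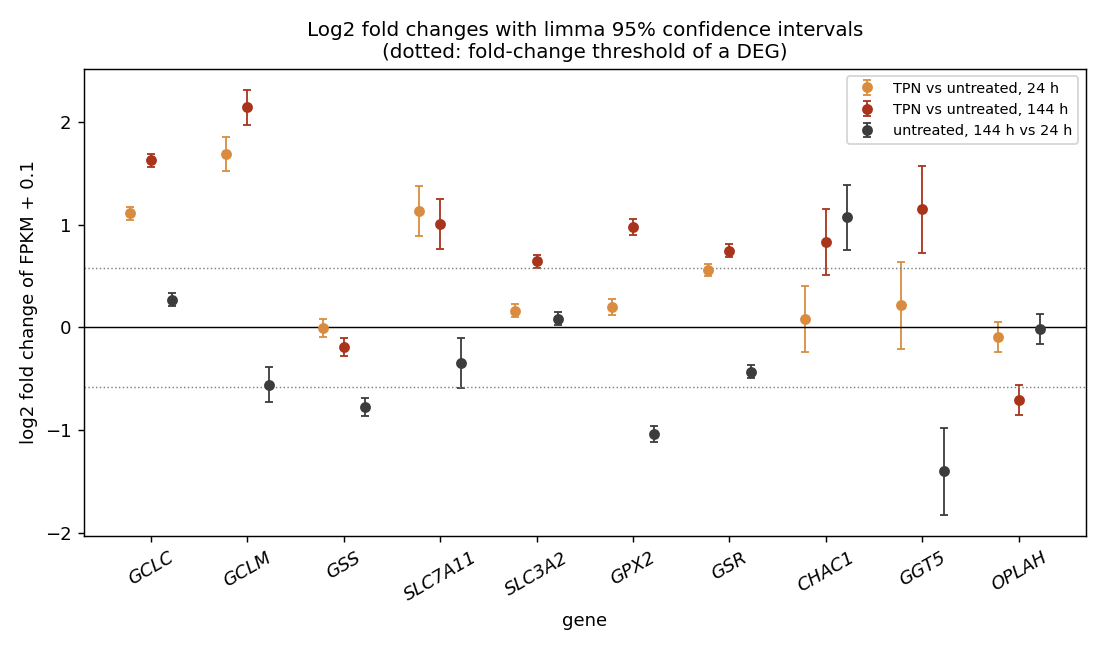
Log2 fold changes of FPKM + 0.1 (y axis) with limma 95% confidence intervals (error bars) for the 10 genes (x axis) in 3 comparisons. The dotted lines mark the fold threshold of a DEG at 0.58. GCLM lies highest with TPN at 144 h at 2.14, and OPLAH is the lone gene below the lower line with TPN, at -0.70 at 144 h.

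Culture time alone also moved these genes. In untreated spheroids, 3 of the 10 genes were higher at 144 h than at 24 h, 6 were lower and 1 did not pass, beside 20.1% of all genes higher and 52.4% lower. After median ratio scaling, 4 were higher and 5 lower, beside 32.7% and 34.2% of all genes. The median of all genes was itself -0.18 on the log2 scale, and it was -0.012 after median ratio scaling and -0.049 after quantile normalization. Relative to that shift, GPX2 (-1.04), GGT5 (-1.4) and GSS (-0.77) lay well below the median of all genes, and CHAC1 (1.07) well above it. These 4 were the DEGs, 1 higher and 3 lower, beside 6.8% and 12.2% of all genes.

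Of the remaining genes, GCLM (-0.56, limma adjusted p = 2.08e-05) and GSR (-0.43, limma adjusted p = 1.41e-08) were lower in untreated spheroids at 144 h, and GCLC (0.27, limma adjusted p = 1.98e-06) was higher. SLC7A11 (-0.34, limma adjusted p = 0.014) did not pass after median ratio scaling (-0.17, adjusted p = 0.188), after quantile normalization (-0.22, adjusted p = 0.1) or without untreated 24 h library 3 (-0.25, adjusted p = 0.0729). SLC3A2 (0.086, limma adjusted p = 0.02) did not pass with libraries scaled to one sum (0.070, adjusted p = 0.0506), without untreated 24 h library 1 (0.058, adjusted p = 0.106) or without untreated 144 h library 3 (0.068, adjusted p = 0.0841). OPLAH did not pass at -0.012 (limma adjusted p = 0.881), and after median ratio scaling it was at 0.16 (adjusted p = 0.047).

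In all, 10 regulators of these genes were followed, of which 7 passed at 24 h (6 higher, 1 lower, beside 5.04% and 5.46% of all genes) and 8 at 144 h (6 higher, 2 lower, beside 24.2% and 28.3%). NFE2L2, which encodes NRF2, fell from 97.4 ± 0.339 to 78.5 ± 1.19 FPKM at 24 h and from 101.8 ± 3.98 to 77.2 ± 1.84 FPKM at 144 h (SD, n = 3), by 0.31 and 0.40 on the log2 scale (limma adjusted p = 1.95e-05 and 1.93e-07). KEAP1, the adaptor through which NRF2 protein is degraded, rose by 0.29 and 0.39 at these times (limma adjusted p = 0.000938 and 7.22e-06). BACH1, a repressor at antioxidant response elements, rose by 0.28 and 0.42, and the small MAF partner MAFG by 0.31 and 0.53. MAFF rose by 0.26 and 0.14, and MAFK rose at 144 h by 0.48 and was at 0.14 without passing at 24 h. NFE2L1, a relative of NFE2L2, passed at neither time (-0.024 and 0.063).

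ATF4, the transcription factor of the amino acid response, rose from 433.2 to 476.8 FPKM at 24 h and from 496.6 to 569.9 FPKM at 144 h, with log2 fold changes of 0.14 and 0.20 (limma adjusted p = 0.00334 and 2.25e-05). ATF3 was at 0.26 at 24 h (limma adjusted p = 0.0476), a call lost in 14 of 22 alternatives (adjusted p from 0.034 to 0.162 over all 22), among them leaving out any untreated library, TPN 24 h library 2 or 3, or TPN 144 h library 3. At 144 h, ATF3 was at -0.080 without passing. DDIT3, or CHOP, was at -0.0037 without passing at 24 h and fell by 0.41 at 144 h (limma adjusted p = 0.00205). Both were far higher in untreated spheroids at 144 h than at 24 h, by log2 fold changes of 3.79 and 2.61. None of the 10 regulators was a DEG with TPN.

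Among NRF2 targets outside GSH synthesis, 13 of 13 tested genes were higher at 24 h and 13 of 13 at 144 h. Of all genes, 5.04% and 24.2% were higher at these times. The medians were 0.48 and 0.95 for the list, beside -0.0045 and -0.018 for all genes. After quantile normalization, 12 of 13 were higher at 24 h. This list, like the others, was chosen with earlier results of these data known. HMOX1, heme oxygenase 1, rose by log2 fold changes of 1.54 and 2.14, and OSGIN1, an oxidative stress growth inhibitor, by 1.59 and 1.77. The smallest change at 144 h in the list was that of PGD at 0.23, a gene chosen after its values were seen. Of the 13 genes, 12 had a larger change at 144 h than at 24 h by the test of the difference, beside 14.1% of all genes.

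The ATF4 amino acid response list holds 13 genes, 3 of which (CHAC1, SLC7A11 and SLC3A2) are among the 10 described above. At 24 h, 6 were higher and 1 lower, and at 144 h, 8 were higher and 3 lower (beside the shares of all genes given for the regulators), with medians of 0.16 and 0.39. These counts and medians rest in part on the 3 shared genes, of which SLC7A11 and SLC3A2 were higher at 24 h and all 3 at 144 h. The rest are named after their values were seen. At 24 h, ASNS, TRIB3, STC2 and CEBPB were higher and PSPH lower. At 144 h, ASNS (0.24), SESN2 (0.39), STC2 (0.47), CEBPB and VLDLR were higher, and DDIT4 (-0.22), PSPH and PHGDH lower. CEBPB, a partner of ATF4, rose by 0.69 and VLDLR, a lipoprotein receptor, by 0.68 at 144 h. PSPH and PHGDH, enzymes of serine synthesis, fell by 0.30 and 0.22 at 144 h. With culture time in untreated spheroids, 2 of the 13 NRF2 targets were higher and 11 lower, beside 20.1% and 52.4% of all genes. Of the 13 ATF4 response genes, 9 were higher and 4 lower, with a median of 1.01 beside -0.18 for all genes. CHAC1 and SLC3A2 were among the higher and SLC7A11 among the lower. After median ratio scaling these counts were 2 higher and 8 lower for the NRF2 targets and 10 higher and 2 lower for the ATF4 response. The shares of all genes were then 32.7% higher and 34.2% lower.

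RefSeq promoter windows (250 bases before to 50 after the start site, GRCh38.p14) were found for 5 of the 10 genes: GCLC, GCLM, SLC3A2, GPX2 and CHAC1. They were searched on both strands for the antioxidant response element core TGACNNNGC (GCNNNGTCA on the other strand), whose letters also allow AP-1 type sites, and for the amino acid response element core TGATGNAA (TTNCATCA on the other strand). The first was found in GCLM at position -34, SLC3A2 at -37 and GPX2 at -122 from the start site, 3 of the 5 genes, and in 13.3% of 35116 windows. The second was found in CHAC1 at -209 and in SLC3A2 at 37, beyond the start site, and in 3.62% of all windows. The GCLC window held neither. SLC3A2 has 3 start sites in the table, and the matches lie in the window of 1 of them. The counts above are per gene and the shares per window, so they are not like measures. The 4 upstream stretches with a match are shown 5' to 3' on the gene's strand, with the match in capitals. It is the antioxidant core in the first 3 and the amino acid response core in CHAC1. All 5 genes with a window rose at 144 h, GCLC without a match among them. A match is a description of these letters and not a measured binding site.
GCLM, chr1:93909431-93909680, minus strand: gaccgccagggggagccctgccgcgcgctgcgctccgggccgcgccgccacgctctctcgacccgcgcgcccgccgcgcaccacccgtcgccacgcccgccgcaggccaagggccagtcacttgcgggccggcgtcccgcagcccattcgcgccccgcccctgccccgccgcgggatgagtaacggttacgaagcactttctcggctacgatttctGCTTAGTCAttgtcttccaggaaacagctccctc
SLC3A2, chr11:62881449-62881698, plus strand: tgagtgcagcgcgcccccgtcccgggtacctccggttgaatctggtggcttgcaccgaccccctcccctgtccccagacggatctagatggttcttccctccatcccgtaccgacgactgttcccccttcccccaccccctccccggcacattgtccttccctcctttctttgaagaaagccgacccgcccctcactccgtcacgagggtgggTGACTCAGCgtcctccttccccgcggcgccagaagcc
GPX2, chr14:64942746-64942995, minus strand: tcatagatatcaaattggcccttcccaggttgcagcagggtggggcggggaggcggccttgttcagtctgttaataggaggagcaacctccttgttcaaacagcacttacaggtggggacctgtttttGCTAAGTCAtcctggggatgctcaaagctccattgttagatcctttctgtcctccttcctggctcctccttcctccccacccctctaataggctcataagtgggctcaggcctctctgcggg
CHAC1, chr15:40953221-40953470, plus strand: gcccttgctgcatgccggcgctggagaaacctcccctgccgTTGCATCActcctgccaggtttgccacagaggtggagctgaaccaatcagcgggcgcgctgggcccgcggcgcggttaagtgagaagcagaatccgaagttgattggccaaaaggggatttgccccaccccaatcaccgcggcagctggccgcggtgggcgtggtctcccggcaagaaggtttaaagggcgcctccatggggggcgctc

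Beyond these, other genes of GSH metabolism were taken from lists. Among GSH breakdown and cysteine recovery enzymes, 9 were tested, of which 1 was higher and 4 lower at 144 h, beside 24.2% and 28.3% of all genes. At 24 h, DPEP1 alone passed (-0.22, limma adjusted p = 0.0239), and it did not pass in 6 of 22 alternatives, without the trend or without untreated 24 h library 2 or 3 or any TPN 24 h library (adjusted p up to 0.0843). The count was 2 after quantile normalization, with the 24 h libraries alone or without untreated 24 h library 1 or TPN 144 h library 2. GGT7, a relative of GGT5, rose by 0.26 at 144 h. The surface aminopeptidase ANPEP fell by 0.38 and the dipeptidase DPEP1 by 0.35. The other 2 that fell at 144 h, named after their values were seen, were the carnosine dipeptidase CNDP2 (-0.22) and GGCT (-0.18), a cytosolic gamma-glutamylcyclotransferase. No gene of this list was a DEG with TPN at either time, where CHAC1, GGT5 and OPLAH were DEGs at 144 h. With culture time in untreated spheroids, 4 of the 9 were lower DEGs (DPEP1, GGCT, CHAC2 and GGT6, named after their values were seen), beside 12.2% of all genes.

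Of 12 GSH peroxidases, glutaredoxins and related genes tested, 3 were higher and 7 lower at 144 h, beside 24.2% and 28.3% of all genes, with a median of -0.15 where GPX2 was at 0.98. Glutaredoxin GLRX rose from 200.6 to 316.2 FPKM (0.66) and the secreted peroxidase GPX3 from 313.9 to 419.1 FPKM (0.42). GPX1, the ubiquitous peroxidase, fell from 68.2 to 55 FPKM (-0.31), and HAGH, a hydrolase of the glyoxalase pathway, also fell by 0.31. The third that rose was GLRX3 (0.15), named after its values were seen. At 24 h, 1 gene of the list was higher (GLRX, 0.25) and 1 lower (HAGH, -0.20).

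In methionine and cysteine supply, 17 genes were tested, of which 4 were higher at 24 h, beside 5.04% of all genes, and 5 were higher and 5 lower at 144 h, beside 24.2% and 28.3%. BHMT2 and MAT1A, which regenerate and activate methionine, rose at 144 h by 0.88 and 0.60, and they also rose at 24 h by 0.46 and 0.33. The other 2 that rose at 24 h, named after their values were seen, were AHCYL1 (0.21) and GOT1 (0.17). GNMT, a methyltransferase that uses S-adenosylmethionine, was at 2.26 ± 0.514 FPKM untreated and 0.777 ± 0.311 FPKM with TPN at 144 h (SD, n = 3), a log2 fold change of -1.47. SUOX, sulfite oxidase, fell by 0.32. At 144 h, BHMT (0.35), GOT1 (0.30) and AHCYL1 (0.21) also rose, and MPST (-0.29), MAT2B (-0.14) and AHCY (-0.13) fell, again named after their values were seen.

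Among 14 tested transporters of cystine, cysteine, glutamate and GSH, 6 were higher and 5 lower at 144 h, beside 24.2% and 28.3% of all genes. ABCC2, an exporter of GSH and its conjugates into bile, rose from 133.9 to 224.3 FPKM at 24 h (0.74) and from 124.6 to 245.7 FPKM at 144 h (0.98), and ABCC4 rose at 144 h by 0.57. SLC7A9, the light chain of another cystine carrier, fell at 144 h by 0.59 and was at 0.033 without passing at 24 h. SLC25A11, a mitochondrial carrier, fell at 144 h by 0.36, as did its relatives SLC25A10 (-0.25), SLC25A39 (-0.20) and SLC25A40 (-0.19), named after their values were seen. At 24 h, 4 of the list were higher, ABCC2 and, named after their values were seen, ABCC1 (0.20), SLC1A5 (0.28) and SLC7A5 (0.12), a light chain that also pairs with SLC3A2. The 1 lower gene, SLC1A2 (-0.23, limma adjusted p = 0.0461), did not pass in 16 of 22 alternatives, any 1 library left out among them (adjusted p from 0.0148 to 0.184 over all 22), and it was higher at 144 h (0.40).

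**Figure D4:**
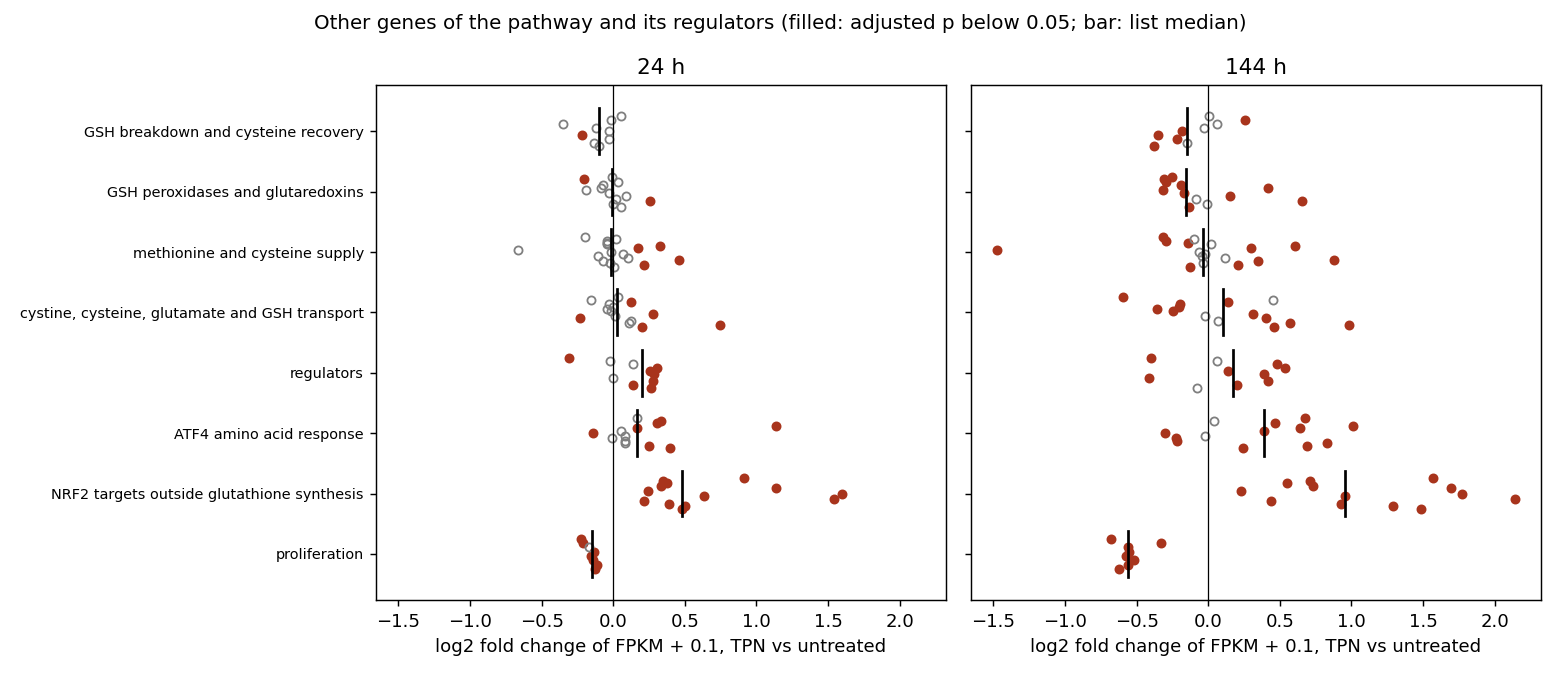
Log2 fold changes of FPKM + 0.1 with TPN (x axes) for each gene of 8 lists (y axis) at 24 h and 144 h. Filled points passed at an adjusted p below 0.05, and vertical bars mark the list medians. The medians at 24 h and 144 h are 0.48 and 0.95 for NRF2 targets, -0.15 and -0.56 for proliferation genes and -0.096 and -0.15 for the GSH breakdown list.

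Other features of the exposed spheroids moved with these genes. All 8 proliferation genes fell at 144 h, beside 28.3% of all genes (TOP2A by 0.68, BIRC5 by 0.62, median -0.56). At 24 h, 7 fell with a median of -0.15, beside 5.46% of all genes. That count was 3 without the intensity trend. It was 3 or 4 without any of the untreated 24 h libraries or TPN 24 h libraries 1 and 2. Of 9 hepatocyte markers tested, 4 were lower with TPN at 24 h (median -0.12), beside 5.46% of all genes. At 144 h, 8 of these markers were lower (median -0.35), beside 28.3% of all genes, and none was higher at either time. Their sum ranged from 10979 to 11015 FPKM with TPN and from 11901 to 12266 FPKM untreated at 24 h, and from 10317 to 11057 FPKM with TPN and from 13249 to 14225 FPKM untreated at 144 h, without overlap at either time. Within that sum, ALB averaged 6044 FPKM untreated and 3863 FPKM with TPN at 144 h. SERPINA1 averaged 3670 and 3584 FPKM there and did not pass. The part of these shifts in the values of the 10 genes was not tested.

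The genes whose pattern over the 12 libraries lay nearest to that of 3 of the genes were sought by the root mean square difference of log2(FPKM + 0.1), each gene centred on its own mean. Nearest to GCLM were HMOX1 (0.15), AKR1B10 (0.17), P2RY6 (0.28) and TRIM54 (0.28), where the median over all other genes was 1.00. AKR1B10, an aldo-keto reductase, averaged 173.9 and 468.3 FPKM in untreated and TPN 24 h and 91.8 and 439.7 FPKM in untreated and TPN 144 h. TRIM54 averaged at most 1.82 FPKM in any group. Nearest to SLC7A11 were UNKL (0.16), ZNF746 (0.17), DNAJB4 (0.19) and DGKG (0.20), with a median of 0.61 over all others. Nearest to CHAC1 were KLF10, MAP1LC3B, S100P and UPP1 (0.18 to 0.19, median over all others 0.90). These distances describe the 12 libraries, which share groups, and carry no test.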

How the data were processed

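Strand-specific libraries were prepared and sequenced with BGI Genomics as DNA nanoballs (DNBSEQ). Reads were cleaned with SOAPnuke, mapped with HISAT2 2.0.4 to GRCh38.p13 and with Bowtie2 2.2.5 to transcripts, and quantified with RSEM. The FPKM values were used as deposited by the authors, 1 column per library. The replicates are described as independent experiments. The table held 16705 genes, and 20 broken lines without values were skipped. Symbols, gene numbers and coordinates came from this table, and the deposited intervals of GCLM and CHAC1 reach beyond the RefSeq start sites.

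The study's count test needs read counts, so log2(FPKM + 0.1) of 11713 genes with a mean of at least 0.5 FPKM was tested with limma 3.58.1 in R 4.3.3 in 1 model of 4 groups (eBayes with trend, Benjamini-Hochberg adjustment, checked on simulated data). The interaction is the TPN effect at 144 h minus that at 24 h. Depth, about 1.65e+07 fragments, was estimated from steps of 0.05 to 0.133 FPKM in 6 genes, and 1 fragment is worth about 0.0339 FPKM on 2000 bases. Ratios were compared by exact permutation. The 10 genes and the lists were chosen with earlier results of these data known. Named are all 10 genes, all regulators, the 2 highest and 2 lowest passing genes of each other list at 144 h, and the 4 nearest genes. For NRF2 targets and proliferation, 2 each passed in 1 direction alone. Tables and figures were made in Python 3.11.15 (numpy 2.4.6, pandas 2.3.3, matplotlib 3.10.9).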

Additional observations from a re-analysis of the deposited data

Results flagged for a closer look

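For 9 of the 10 genes, the log2 fold change with TPN differed between 144 h and 24 h by limma's test of the difference, and this is what called for a closer look. The difference was 0.46 for GCLM, 0.52 for GCLC, 0.48 for SLC3A2, 0.19 for GSR, 0.78 for GPX2, 0.75 for CHAC1 and 0.94 for GGT5, all larger at 144 h. It was -0.19 for GSS and -0.61 for OPLAH. For GCLM, GSR, GPX2 and GGT5, the mean exposed level was itself lower at 144 h than at 24 h, as was the untreated level. At the same threshold, 14.1% of all genes had the larger and 16.3% the smaller log2 fold change at 144 h. The differences of GSS and GGT5 did not pass in 5 of 21 and 4 of 20 alternatives.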

How the results depend on the processing

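Over 22 alternatives (pseudocounts of 1 and 0.01, 2 other filters, 3 scalings, no trend, 1 time point alone, a replicate block, and each of 12 libraries left out), 832 of 856 values of the 10 genes kept direction and side of the threshold, 15 lost their call and 9 changed sign. The count of genes past the test stayed at 6 at 24 h and ranged from 9 to 10 at 144 h, from 7 to 9 for the difference between times and from 8 to 9 for untreated time, and DEGs ranged from 3 to 4, 8 to 9, 2 to 4 and 3 to 5. The count of 9 at 144 h came from the filter at a mean of 1 FPKM, which removed GGT5 (mean 0.71 FPKM). No gene tested at 144 h lost its call. With a pseudocount of 1, 2 genes were DEGs for the difference between times instead of 4. The values that changed sign were not called under the main settings. GSS at 24 h was at 0.00204 after quantile normalization, and at -0.035 to 0.019 over the libraries left out. CHAC1 at 24 h was at -0.016 to 0.24 over the libraries left out, below 0 without untreated library 2. OPLAH over untreated time was at 0.16 after median ratio scaling, which passed (limma adjusted p = 0.047). It was at 0.11 after quantile normalization and at -0.036 to 0.030 over the libraries left out. The cause was not tested. The log2 difference in the GCLM to GCLC ratio, TPN minus untreated, ranged from 0.49 to 0.62 at 24 h and 0.36 to 0.62 at 144 h. That in the SLC7A11 to SLC3A2 ratio ranged from 0.86 to 1.07 and from 0.25 to 0.49. Whether replicate numbers pair the libraries was not settled. Deviations of untreated and exposed libraries correlated at -0.083 to 0.1025 for the same number and at -0.1631 to 0.0773 for different numbers. With the replicate block, 6, 10, 9 and 9 of the 10 genes passed at 24 h, at 144 h, for the difference and for untreated time, as without it. The block gave the ratios p = 0.25 in the exact test, the smallest it allows. GGT5 and CHAC1 rest on few fragments, and depth differences between libraries could not be resolved.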
